A study of Rattus norvegicus with 8 samples.

Results

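Growth plate cartilage is built and remodelled by matrix metalloproteinases, zinc enzymes that cleave collagens and proteoglycans outside the cell, by the related ADAMTS proteases, and by the tissue inhibitors of metalloproteinases (Timp proteins) that bind and block them. The genes described here are 4 proteases (Mmp2, Mmp3, Mmp14 and Adamts1) and 3 inhibitors (Timp1, Timp2 and Timp3). All probe sets that the platform annotation maps to exactly 1 of these genes were taken, which gave 13 probe sets (6 for proteases and 7 for inhibitors) of 31042 analysed. Mmp3, Adamts1 and Timp1 had 1 probe set each, Mmp2, Mmp14 and Timp2 had 2 each, and Timp3 had 4. The collagenase Mmp13 and the gelatinase Mmp9 are not among the 7 genes and are given only as part of the wider family.

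The study used Affymetrix rat arrays to profile the growth plate of the femur, the cartilage layer through which this long bone lengthens, in Rattus norvegicus. The arrays cover 4 zones (perichondral, reserve, proliferative and hypertrophic) at the ages of 46 and 42 days, with 1 array per zone and age. Each array received RNA pooled from 3 rats, so every zone has n = 2 arrays, and the 2 arrays of a zone also differ in age. The labels give no strain, sex or treatment, and neither the way the zones were separated nor a possible sharing of rats between zones is stated. The p-values measure only the spread between these pools.

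Mmp2 (gelatinase A) degrades denatured collagen and basement membrane collagen, Mmp14 is a membrane-anchored collagenase that activates the Mmp2 proenzyme at the cell surface, and Mmp3 (stromelysin) degrades proteoglycans and activates other metalloproteinases. Adamts1 is a secreted protease that cleaves aggregating proteoglycans such as aggrecan and versican. Timp1 and Timp2 are soluble inhibitors, and Timp2 also takes part with Mmp14 in the activation of Mmp2. Timp3 is held in the matrix and also blocks ADAMTS proteases.

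Values are given as quantile normalized log2(intensity + 16), on which the median of all probe sets was 8.25, and differences on this scale understate those of dim probe sets. As a yardstick for background, the 0.95 quantile of the values of 34 measured marker genes of non-skeletal organs, 9.96, is called the other-organ level. None of the 13 probe sets was above it in all 8 arrays, 6 were above it in some arrays and 7 in none. Among all probe sets, 69.8% were above it in no array and 5.0% in all. Levels are compared between arrays for the same probe set and never between probe sets. Where a gene had several probe sets, the one with the highest mean leads its description.

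**Figure D1:**
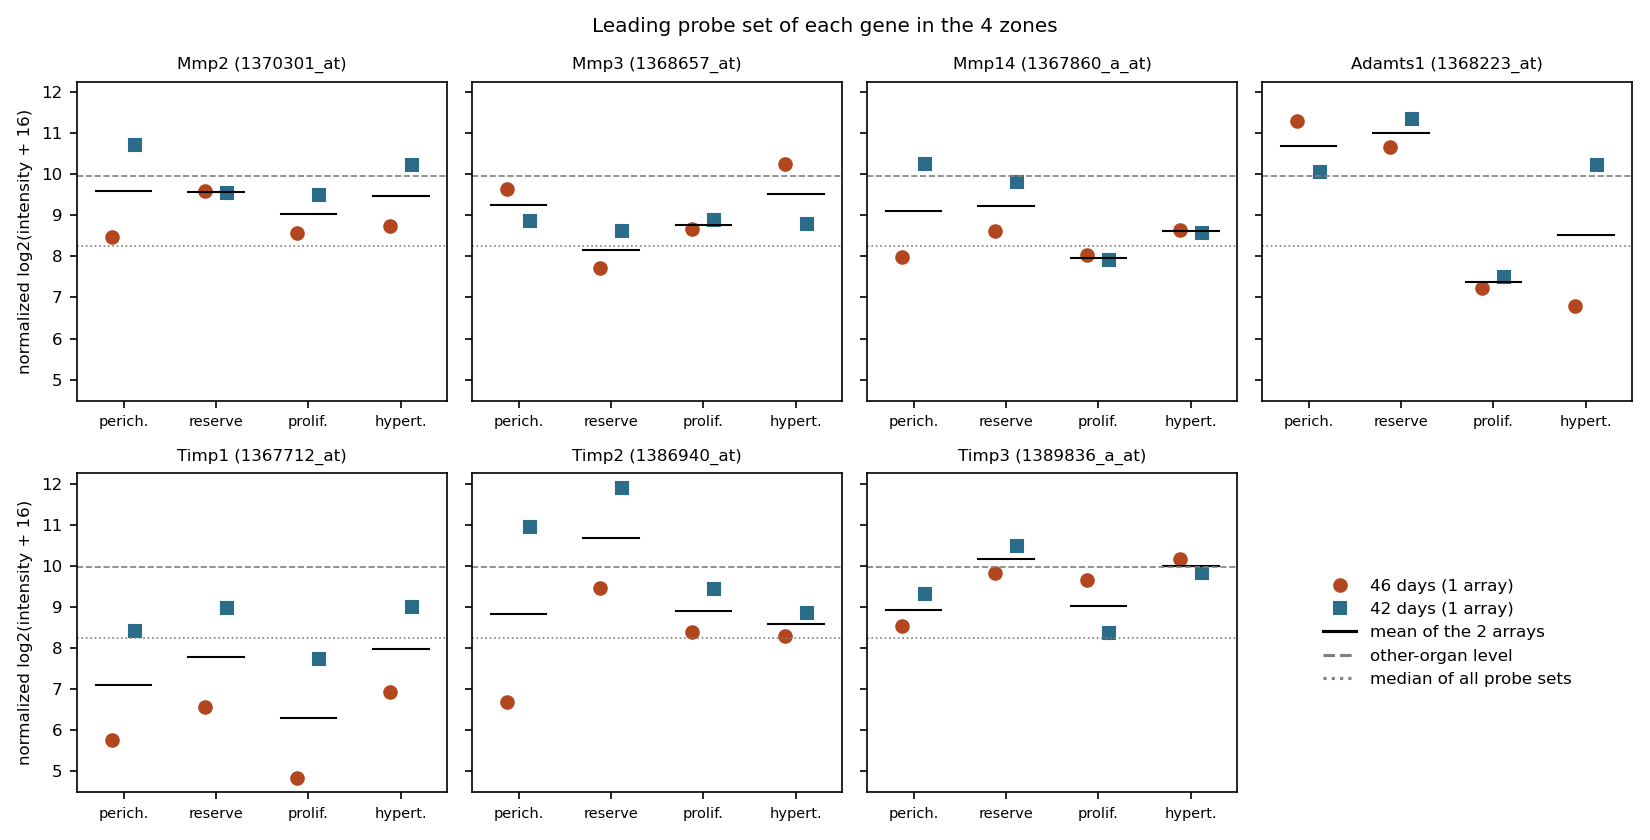
Normalized log2(intensity + 16) of the leading probe set of each of the 7 genes (y axis) in the perichondral, reserve, proliferative and hypertrophic zones (x axis). Circles are 46-day arrays, squares 42-day arrays, bars the mean of 2 arrays, and the dashed and dotted lines mark the other-organ level (9.96) and the median of all probe sets (8.25). Adamts1 lies between 10.06 and 11.33 in perichondral and reserve arrays and at 7.22 and 7.51 in proliferative arrays, and the 4 squares of Timp1 lie above its 4 circles.

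The promoters of 3 members are shown because Adamts1 had the largest zone difference among the 7 genes, and Timp1 and Timp2 the lowest unadjusted p-values between ages. Windows were found by gene symbol for 5 of the 7 genes. Each is the 250 bases before the annotated gene start, from RefSeq on build GRCr8, read on the strand of the gene. They lie at chr11:38427385-38427634 (minus strand), chrX:3771123-3771372 (minus strand) and chr10:104089215-104089464 (minus strand). Capitals mark matches on either strand to TGANTCA (the AP-1 motif), GGGCGG (the Sp1 motif) and TATAAA (the TATA motif), and no matches overlap in these windows.
Adamts1: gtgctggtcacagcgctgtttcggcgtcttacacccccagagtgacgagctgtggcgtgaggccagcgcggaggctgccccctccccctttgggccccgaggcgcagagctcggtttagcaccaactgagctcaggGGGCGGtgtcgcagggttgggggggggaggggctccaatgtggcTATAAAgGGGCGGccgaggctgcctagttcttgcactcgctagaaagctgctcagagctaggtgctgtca
Timp1: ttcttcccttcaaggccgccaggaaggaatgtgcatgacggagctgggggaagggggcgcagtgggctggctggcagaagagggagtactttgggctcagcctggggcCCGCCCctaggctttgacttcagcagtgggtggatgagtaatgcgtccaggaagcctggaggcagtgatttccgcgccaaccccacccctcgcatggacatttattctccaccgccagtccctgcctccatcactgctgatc
Timp2: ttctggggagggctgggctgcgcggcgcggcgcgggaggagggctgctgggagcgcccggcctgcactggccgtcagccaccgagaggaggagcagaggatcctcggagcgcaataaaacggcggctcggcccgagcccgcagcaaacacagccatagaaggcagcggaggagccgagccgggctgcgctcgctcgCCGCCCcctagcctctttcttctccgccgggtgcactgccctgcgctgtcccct
The Adamts1 window holds 2 matches to GGGCGG and 1 to TATAAA, and the windows of Timp1 and Timp2 hold 1 match to GGGCGG each. Of the other members, Timp3 had 3 matches to GGGCGG, and Mmp3 had 1 match to TGANTCA, from 71 to 65 bases before the start, and 1 to TATAAA. Among 33469 windows of the same length, 30.5% held GGGCGG, 12.9% held TATAAA and 6.34% held TGANTCA. These matches are descriptions of the letters only.

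No member passed the threshold in any comparison of zones or ages. In limma, each zone was given its own mean across the 8 arrays, and a probe set was called at a Benjamini-Hochberg adjusted p below 0.05 over all 31042 probe sets. The share of all probe sets called was 0.00% for perichondral minus reserve, 0.00% for perichondral minus proliferative, 0.0290% for perichondral minus hypertrophic, 0.0226% for reserve minus proliferative, 0.0226% for reserve minus hypertrophic and 0.0129% for proliferative minus hypertrophic. A test of any difference among the 4 zones called 0.0387% and the test of age 0.00%, so a count of 0 among 13 probe sets is near the background in each case. The smallest adjusted p of a member was 0.302, for Timp2 between ages, and the smallest between zones was 0.308, for Adamts1 between reserve and proliferative arrays. The values below are therefore descriptions of 8 arrays, with the interval of each difference.

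At an unadjusted p below 0.05, 3 of the 13 probe sets differed between reserve and hypertrophic arrays (8.10% of all probe sets), 2 between perichondral and hypertrophic arrays (6.17%), 1 between perichondral and proliferative arrays (5.00%) and 1 between reserve and proliferative arrays (7.64%). Between perichondral and reserve arrays (3.75%) and between proliferative and hypertrophic arrays (5.52%) there was none, and the test of any zone difference had 1, Adamts1 (6.20%). Adamts1 accounts for 1 probe set in each of the 4 pairs of zones that had any. The others were 1 probe set of Timp3 (1368989_at) between perichondral and hypertrophic arrays, and 1 each of Mmp2 (1369825_at) and Timp2 (1367823_at) between reserve and hypertrophic arrays.

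Adamts1, the proteoglycan-cleaving protease, had high values in the perichondral and reserve zones and low values in the proliferative zone. It was at 11.29 and 10.06 in perichondral, 10.65 and 11.33 in reserve, 7.22 and 7.51 in proliferative, and 6.80 and 10.23 in hypertrophic arrays at 46 and 42 days. The 4 perichondral and reserve arrays lay above both proliferative arrays and above the other-organ level, whereas both proliferative arrays lay below that level and the hypertrophic arrays lay on either side of it. Deposited intensities were 2434.2 and 1056.9 in perichondral, 1591.7 and 2968.3 in reserve, and 151.5 and 154.8 in proliferative arrays.

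Reserve minus proliferative was the largest zone difference of Adamts1, at 3.63 on the log2 scale (SE 0.91, 95% interval 1.71 to 5.55), a 12.4-fold higher mean in reserve arrays. Its unadjusted p was 0.000991 and its adjusted p 0.308 with limma. Perichondral minus proliferative was 3.31 (95% interval 1.39 to 5.24, adjusted p = 0.963), and the groups did not overlap in either comparison. Perichondral minus reserve was -0.31 with an interval from -2.24 to 1.61, so a difference of up to about that size in either direction was not detectable with these arrays. In whole tissue RNA, fewer cells of a type and less RNA per cell cannot be told apart.

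The 2 hypertrophic arrays of Adamts1 stood far apart, with an SD of 2.43 (n = 2), where the SD was 0.87 in perichondral, 0.48 in reserve and 0.20 in proliferative arrays. Without the 46-day hypertrophic array, Adamts1 passed the threshold between reserve and proliferative arrays (3.66, adjusted p = 0.0324). Without the 42-day hypertrophic array it passed between reserve and hypertrophic arrays (adjusted p = 0.0382) and in the test of any zone difference (adjusted p = 0.0339). These were the only member calls over all alternatives run.

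The summed markers of fibrous tissue split the arrays into high and low as Adamts1 did. The summed deposited intensity of 9 markers of fibrous perichondrium and periosteum was 45717 and 134521 in perichondral, 112409 and 144083 in reserve, 7321 and 10277 in proliferative, and 9218 and 206545 in hypertrophic arrays at 46 and 42 days. The sum was low in the same 3 arrays in which Adamts1 was low, with no marker listed at 0, and its part in the Adamts1 differences was not tested. Within the perichondral zone the order was opposite, and single markers differed from the sum: Postn, a fibrous matrix protein, averaged 10.80 in the perichondral zone but 7.07 in reserve, close to the 7.36 of the proliferative zone and the 7.19 of the hypertrophic zone, and the transcription factor Prrx1 averaged 10.21 in proliferative and 6.72 in hypertrophic arrays. A sum of intensities weighs bright genes most. In the hypertrophic zone the collagens Col1a1, Col1a2 and Col3a1 averaged 13.71, 14.34 and 10.41, while Ogn and Tnc averaged 8.41 and 7.15. These are means of both ages, so they do not show which markers made the high sum of the 42-day hypertrophic array. In that array 4 of the 9 were above the other-organ level, against 3 in the 46-day one. Between 4 and 6 of the 9 were above the other-organ level in perichondral and reserve arrays, and 3 or 4 in proliferative and hypertrophic arrays. The leukocyte and marrow markers (7 of 9 measured, none listed at 0) summed to between 712 and 3461 in perichondral, 40069 and 42325 in reserve, 709 and 1487 in proliferative, and 1329 and 20540 in hypertrophic arrays. They were low in perichondral arrays, where Adamts1 was high, and their part in the Adamts1 differences was not tested.

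The surface protease Mmp14 had the same order of reserve and proliferative means with a smaller gap. Its leading probe set (1367860_a_at) was at 7.99 and 10.24 in perichondral, 8.63 and 9.82 in reserve, 8.04 and 7.90 in proliferative, and 8.65 and 8.58 in hypertrophic arrays at 46 and 42 days. Both reserve arrays lay above both proliferative arrays, while the perichondral arrays overlapped with every other zone. Reserve minus proliferative was the largest difference, at 1.25 (SE 0.87, 95% interval -0.59 to 3.10, adjusted p = 0.769), and it was 0.65 without the 42-day reserve array.

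The other Mmp14 probe set (1378225_at) was dim, between 5.08 and 5.78 in 7 arrays and at 7.50 in the 42-day hypertrophic array. Its zone means differed in the same direction as those of the leading probe set in only 2 of 6 pairs of zones. Its largest difference was perichondral minus hypertrophic, at -1.12 (95% interval -3.10 to 0.86, adjusted p = 0.893), and it was -0.15 without the 42-day and -2.10 without the 46-day hypertrophic array.

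Mmp2, the gelatinase that Mmp14 activates, had nearly level zone means in its leading probe set (1370301_at). This was at 8.48 and 10.71 in perichondral, 9.59 and 9.54 in reserve, 8.57 and 9.49 in proliferative, and 8.73 and 10.21 in hypertrophic arrays at 46 and 42 days. The zones overlapped in 5 of 6 pairs, and the spread within the perichondral zone (SD 1.58, n = 2) was larger than any difference between zone means. The largest difference was perichondral minus proliferative, at 0.57 (SE 0.80, 95% interval -1.13 to 2.27, adjusted p = 0.977), and it turned to -0.54 without the 42-day perichondral array.

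The dimmer Mmp2 probe set (1369825_at) gave another picture. It was at 7.80 and 5.63 in perichondral, 5.45 and 5.15 in reserve, 7.47 and 4.64 in proliferative, and 8.32 and 8.31 in hypertrophic arrays at 46 and 42 days. Both hypertrophic arrays lay above the other 6, and all 8 values were below the other-organ level. Reserve minus hypertrophic was -3.02 (SE 1.24, 95% interval -5.63 to -0.40, unadjusted p = 0.0263, adjusted p = 0.564), against 0.10 for the leading probe set. The probe sets of Mmp2 differed in the same direction in 3 of 6 pairs of zones.

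Stromelysin, Mmp3, had its lowest mean in the reserve zone. It was at 9.64 and 8.86 in perichondral, 7.71 and 8.61 in reserve, 8.67 and 8.88 in proliferative, and 10.25 and 8.80 in hypertrophic arrays at 46 and 42 days. Both reserve arrays lay below the other 6. Reserve minus hypertrophic was the largest difference, at -1.36 (SE 0.79, 95% interval -3.02 to 0.30, adjusted p = 0.687), and it was -2.09 without the 42-day and -0.64 without the 46-day hypertrophic array. Perichondral minus reserve was 1.09 (95% interval -0.57 to 2.75, adjusted p = 1.0).

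**Figure D2:**
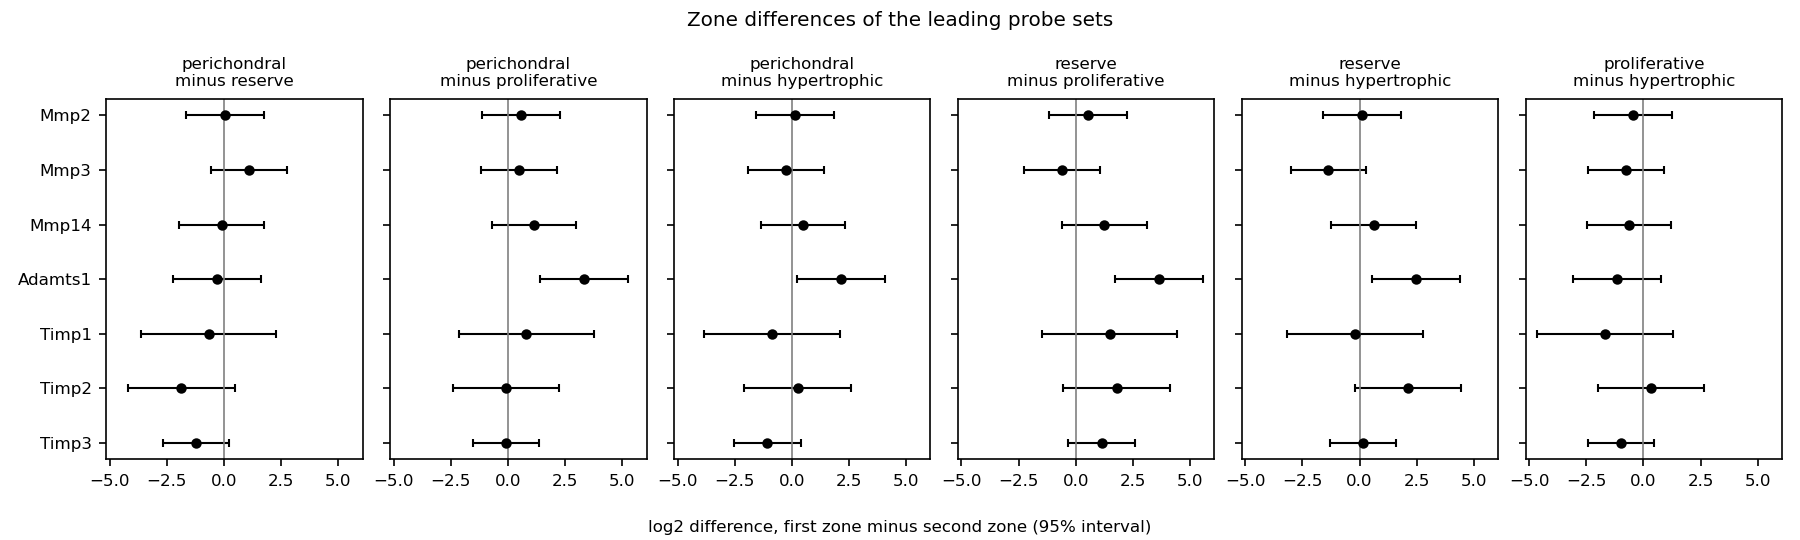
Log2 differences between zones (x axis, first zone minus second zone) for the leading probe set of each gene (y axis), one panel per pair of zones, with points for the difference of means (n = 2 arrays each) and bars for the 95% interval from limma before adjustment. The Adamts1 interval lies above 0 in the 4 panels that set perichondral or reserve arrays against proliferative or hypertrophic arrays, and the intervals of the other 6 genes include 0 in every panel.

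Among the inhibitors, Timp2 had its highest mean in the reserve zone. The leading probe set (1386940_at) was at 6.69 and 10.95 in perichondral, 9.47 and 11.90 in reserve, 8.38 and 9.43 in proliferative, and 8.29 and 8.85 in hypertrophic arrays at 46 and 42 days. Both reserve arrays lay above both proliferative and both hypertrophic arrays, and the perichondral arrays held both the lowest and the second highest value. Reserve minus hypertrophic was the largest difference, at 2.12 (SE 1.10, 95% interval -0.21 to 4.44, adjusted p = 0.657), and it was 0.87 without the 42-day reserve array.

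The other Timp2 probe set (1367823_at) was below the other-organ level throughout, from 4.73 to 8.05. It matched the direction of the leading probe set in 5 of 6 pairs of zones, the closest match among genes with several probe sets. Reserve minus hypertrophic was again its largest difference, at 2.61 (SE 1.23, 95% interval 0.02 to 5.20, unadjusted p = 0.0483, adjusted p = 0.613). Markers of several other cell types also had their highest sums in the reserve zone. Beside the leukocyte and marrow markers given above, the erythroid sum (4 of 5 measured) was 35881 and 10845 in reserve arrays at 46 and 42 days, against 2038 and 736 in proliferative arrays. The osteoblast sum (4 of 6) was 17967 and 5818 against 1862 and 546, the osteoclast sum (5 of 7) 4170 and 8117 against 1255 and 402, and the endothelial sum (6 of 7) 7658 and 6891 against 2891 and 1972 in the same arrays. No marker of these lists was listed at 0. In the 42-day hypertrophic array the osteoblast sum was 14858 and the erythroid sum 9739, while the endothelial sum was 3573 and the osteoclast sum 1535. The part of these markers in the reserve values of Timp2, Mmp14, Mmp9 and Mmp13 was not tested.

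Timp1 arrays parted by age and not by zone. It was at 5.77 and 8.41 in perichondral, 6.57 and 8.96 in reserve, 4.83 and 7.73 in proliferative, and 6.93 and 8.998 in hypertrophic arrays at 46 and 42 days. All 8 values lay below the other-organ level, and each 46-day value lay below each 42-day value. Among zones, proliferative minus hypertrophic was the largest difference, at -1.68 (SE 1.40, 95% interval -4.65 to 1.28, adjusted p = 0.935), and every pair of zones overlapped. It was -0.25 without the 46-day and -3.14 without the 42-day proliferative array.

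The 4 probe sets of Timp3, the matrix-bound inhibitor, did not share one zone pattern. The leading one (1389836_a_at) was at 8.52 and 9.32 in perichondral, 9.82 and 10.49 in reserve, 9.66 and 8.37 in proliferative, and 10.18 and 9.82 in hypertrophic arrays at 46 and 42 days. Both perichondral arrays lay below both reserve and both hypertrophic arrays. Perichondral minus reserve was its largest difference, at -1.23 (SE 0.69, 95% interval -2.69 to 0.23, adjusted p = 1.0).

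In probe set 1375138_at the perichondral arrays were instead among the higher ones, with a mean of 9.56 ± 0.02 (SD, n = 2), and perichondral minus proliferative was 1.93 (95% interval -0.04 to 3.91, adjusted p = 0.963). In probe set 1372926_at the proliferative mean was highest, at 8.73 ± 0.05 (SD, n = 2), and reserve minus proliferative was -2.07 (95% interval -4.43 to 0.30, adjusted p = 0.713). In probe set 1368989_at the hypertrophic mean was highest, at 7.19 ± 1.37 (SD, n = 2), and perichondral minus hypertrophic was -2.45 (95% interval -4.75 to -0.15, unadjusted p = 0.0384, adjusted p = 0.796), or -1.5 without the 42-day hypertrophic array. Any 2 of the 4 probe sets matched in direction in 1 to 4 of 6 pairs of zones, so no order of zones is given for Timp3.

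**Figure D3:**
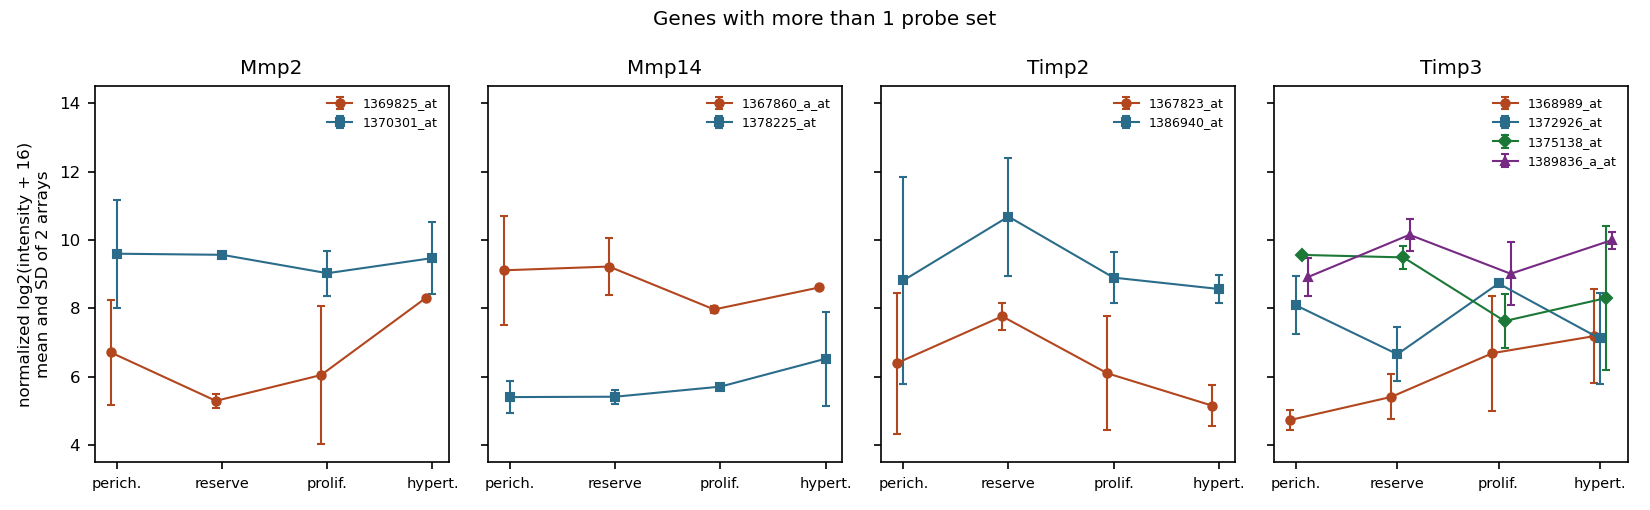
Normalized log2(intensity + 16) (y axis, mean and SD of 2 arrays) by zone (x axis) for the 4 genes with more than 1 probe set, with a line per probe set. The 2 probe sets of Timp2 both peak in the reserve zone, while those of Mmp2, Mmp14 and Timp3 do not run in parallel.

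Counted over all 13 probe sets, the zones compared as follows, where probe sets of one gene share their target. In reserve minus proliferative, 8 were higher in reserve and 5 lower, with a median difference of 1.14 against -0.07 over all probe sets. Both reserve arrays lay above both proliferative arrays in 7 probe sets and below them in 3, together 10 of 13, against 39.7% of all probe sets. In proliferative minus hypertrophic, 3 were higher in proliferative and 10 lower, with a median of -0.67 against 0.0. There 4 of 13 parted without overlap (31.4% of all probe sets). Of these, 3 had both proliferative arrays below both hypertrophic arrays, namely Mmp2 (1369825_at) and the leading probe sets of Mmp14 and Timp3.

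In the other comparisons the medians lay closer to 0. They were -0.11 for perichondral minus reserve (0.03 over all probe sets), 0.48 for perichondral minus proliferative (-0.02), 0.13 for perichondral minus hypertrophic (-0.03) and 0.10 for reserve minus hypertrophic (-0.06). Arrays of the 2 zones did not overlap in 4 of 13 probe sets for perichondral minus reserve (34.7% of all probe sets), 4 for perichondral minus proliferative (34.2%), 3 for perichondral minus hypertrophic (34.9%) and 6 for reserve minus hypertrophic (38.9%). The median pooled SD within zones was 1.14 for the 13 probe sets and 0.96 for all probe sets.

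Between ages, the inhibitor Timp1 and the leading probe set of the inhibitor Timp2 had lower values at 46 days in every zone. The 46-day minus 42-day difference of Timp1 was -2.64 for the perichondral zone, -2.39 for reserve, -2.90 for proliferative and -2.06 for hypertrophic. That of the leading Timp2 probe set was -4.26, -2.44, -1.05 and -0.56 in the same order of zones. The Timp1 difference was of like size in the 4 zones, whereas that of Timp2 ran over a range of several log2 units, and with 1 array per zone and age no test of that difference was possible.

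With zone as a covariate, the age difference of Timp1 was -2.50 (SE 0.81, 95% interval -4.20 to -0.79, unadjusted p = 0.00638, adjusted p = 0.443), lower in 4 of 4 zones. That of Timp2 was -2.08 (SE 0.58, 95% interval -3.29 to -0.86, unadjusted p = 0.00201, adjusted p = 0.302), also lower in 4 of 4 zones. As each zone has 1 array per age, leaving out either array of a zone removes that zone from the age difference. The Timp2 difference was -1.34 without the perichondral zone, its 42-day array left out. The other Timp2 probe set was lower at 46 days in 3 of 4 zones (-1.24, adjusted p = 0.727). It was -0.69 without the perichondral zone, its 46-day array left out. The leading Mmp2 probe set was lower at 46 days in 3 of 4 zones (-1.15, SE 0.50, unadjusted p = 0.032, adjusted p = 0.564). The dimmer one was higher in 4 of 4 zones (1.33, adjusted p = 0.705). Its difference was 0.82 without the proliferative zone, the 46-day array of that zone left out.

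Thus 3 of 13 probe sets had an unadjusted p below 0.05 for age (8.43% of all probe sets). In 2 of 13 the value was lower at 46 days in all 4 zones (7.73%) and in 1 it was higher in all 4 (8.59%). Timp1 was the only one whose 46-day and 42-day arrays did not overlap (3.43%). The age differences of Mmp14 (-0.81), Adamts1 (-0.79), Mmp3 (0.28) and the leading Timp3 probe set (0.05) had adjusted p-values from 0.744 to 0.99. Adamts1 was higher at 46 days in the perichondral zone (1.23) and lower in the hypertrophic zone (-3.44).

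**Figure D4:**
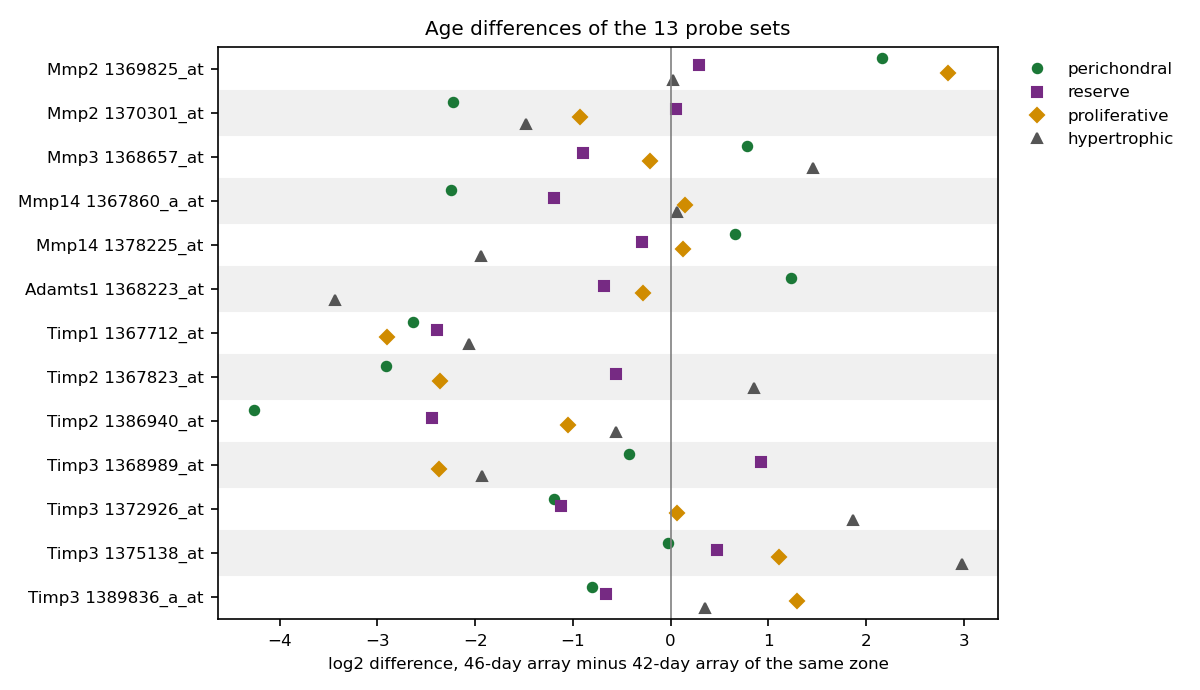
Difference in log2 value between the 46-day and the 42-day array of the same zone (x axis) for each of the 13 probe sets (y axis), with a symbol per zone. The 4 symbols of Timp1 lie together between -2.90 and -2.06, those of the leading Timp2 probe set lie below 0 from -4.26 to -0.56, and those of most other probe sets lie on both sides of 0.

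Of 2 controls of RNA quality, 1 had the same order of ages in every zone. For the Gapdh control, the signal at the 3' end over that at the 5' end was 3.78 at 46 days and 4.47 at 42 days in perichondral, 3.96 and 8.15 in reserve, 5.39 and 7.10 in proliferative, and 3.63 and 4.30 in hypertrophic arrays. It was lower at 46 days in each zone. For the beta-actin control the ratio was 0.557 and 1.64 in perichondral, 2.33 and 4.65 in reserve, 4.56 and 1.85 in proliferative, and 4.59 and 1.72 in hypertrophic arrays at 46 and 42 days, so it was lower at 46 days in the perichondral and reserve zones and higher in the other 2. The part of RNA quality in the Timp1 and Timp2 values was not tested. Matrix genes on which these proteases act also had lower values at 46 days. Of 20 measured genes for cartilage and fibrous matrix proteins, 18 were lower, with a median difference of -0.87 against 0.03 over all probe sets. An unadjusted p below 0.05 was found for 9 of the 20 (8.43% of all probe sets). None passed the threshold, and the one with the largest difference was Fmod, a collagen-binding proteoglycan, at 9.49 in 46-day and 11.70 in 42-day arrays (-2.22, SE 0.37, adjusted p = 0.0693).

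Among the protease, inhibitor and substrate lists, 2 matrix metalloproteinases outside the 7 genes were called. Of 14 other matrix metalloproteinases measured, 2 were higher in reserve than in proliferative arrays (0.0226% of all probe sets) and the same 2, Mmp13 and Mmp9, were lower in proliferative than in hypertrophic arrays (0.0129%). Mmp13, a collagenase, averaged 14.74 in reserve and 8.61 in proliferative arrays (adjusted p = 0.000948), and Mmp9, a gelatinase also made by osteoclasts and leukocytes, averaged 12.70 and 5.59 (adjusted p = 0.00655). Against these differences of 6.13 and 7.11, the reserve minus proliferative differences of the leading probe sets of Mmp2, Mmp3 and Mmp14 were 0.54, -0.61 and 1.25. The other probe sets of Mmp2 and Mmp14 had the opposite sign, at -0.75 and -0.295. No other matrix metalloproteinase passed in any pair of zones. Over 16 alternatives Mmp13 stayed past the threshold in 13 for reserve minus proliferative and in 12 for proliferative minus hypertrophic, and Mmp9 in 11 and 5. Among the losses, neither gene passed in either pair of zones without a variance trend. With limma, the adjusted p was then 0.505 between reserve and proliferative arrays and 0.716 between proliferative and hypertrophic arrays for both genes. Neither passed between proliferative and hypertrophic arrays with median centring (0.142 for Mmp13 and 0.153 for Mmp9). Mmp9 also did not pass there with an offset of 1, without dim probe sets or with only the 4 arrays. Between reserve and proliferative arrays, neither gene passed without the 42-day reserve array or the 46-day proliferative array. Without the 42-day proliferative array Mmp9 did not pass there (0.0691), nor without the 46-day reserve array (0.0777). Between proliferative and hypertrophic arrays neither passed without the 46-day proliferative array (0.115 for Mmp13 and 0.18 for Mmp9) or the 42-day one (0.145 and 0.264), and Mmp9 did not pass without either reserve or either hypertrophic array (adjusted p from 0.083 to 0.138).

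No gene passed among 15 measured ADAMTS and ADAMTS-like genes, 8 ADAM proteases or 21 other inhibitors, activators and clearance factors, in any pair of zones or between ages. Adamts4, an aggrecanase, averaged 10.04 in perichondral and 8.01 in proliferative arrays (2.03, SE 0.73, unadjusted p = 0.0131, adjusted p = 0.963), with no overlap of arrays. It was as high in hypertrophic arrays, at 10.06, again with no overlap with proliferative arrays (proliferative minus hypertrophic -2.05, limma unadjusted p = 0.0123, adjusted p = 0.894). Adamts5, the other main aggrecanase, averaged 10.10 in perichondral and 9.53 in proliferative arrays (0.57, SE 0.63, adjusted p = 0.968). Adam17, a sheddase of membrane proteins, had a reserve minus proliferative difference of 1.62 (adjusted p = 0.672). Serpine2, a secreted inhibitor of serine proteases that activate metalloproteinases, averaged 12.34 in reserve and 10.40 in proliferative arrays (1.94, SE 0.86, adjusted p = 0.634). Furin, the convertase that activates Mmp14, averaged 10.43 and 11.31 in these zones (-0.88, SE 0.55, adjusted p = 0.746).

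The zone labels matched their markers in part. Past the threshold were Ucma, a cartilage matrix protein of the resting zone, at 15.39 in perichondral and 9.27 in hypertrophic arrays (adjusted p = 0.00379) and at 14.94 in reserve arrays (reserve minus hypertrophic, adjusted p = 0.00665), and Col10a1, the collagen of hypertrophic cartilage, at 11.33 in reserve and 16.10 in hypertrophic arrays (adjusted p = 0.0233). Ogn, a proteoglycan of fibrous tissue, averaged 12.92 in perichondral and 8.41 in hypertrophic arrays (adjusted p = 0.0484). S100a9, a neutrophil protein, averaged 13.45 in reserve and 5.90 in proliferative arrays (adjusted p = 0.000438). These were the only marker genes that passed in a pair of zones, all with limma. Cartilage markers were bright in all zones, with 5 to 7 of the 7 measured above the other-organ level in each array. Hypertrophic chondrocyte markers (6 measured) had their highest sum in a hypertrophic array, but the 46-day hypertrophic array, at 34338, lay between the 2 reserve arrays at 25855 and 36608, and the 42-day one stood at 234248. Of these 6, only Col10a1 and Ibsp were above the other-organ level in any array. Proliferating cell markers (7 measured) were not highest in the proliferative zone, with sums of 11926 and 11069 in perichondral arrays, 34663 and 15024 in reserve, 9893 and 14497 in proliferative, and 10584 and 28470 in hypertrophic arrays at 46 and 42 days. Resting chondrocyte markers (4 measured) summed to 1212 and 914 in hypertrophic arrays at 46 and 42 days and to at least 5159 elsewhere.

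The genes whose profile over the 8 arrays lay closest to each member were found by the root mean square distance between profiles centred on their own mean. For Adamts1 they were Oxct1 (0.47), Col5a2 (0.54), a fibrillar collagen chain of fibrous tissue, and Capn7 (0.69), where the spread of Adamts1 about its own mean was 1.77. For Timp2 they were LOC100909539 (0.55), Ctsh (0.55), a lysosomal cysteine protease, and Slc44a2 (0.59), with a spread of 1.52. For Timp1 they were Mea1 (0.52), Vps41 (0.57) and L3mbtl3 (0.58), with a spread of 1.42. The nearest genes were Psmd7 for Mmp2 (0.29), Rrp12 for Mmp3 (0.23), Flcn for Mmp14 (0.22) and Iqub for Timp3 (0.29), against spreads from 0.70 to 0.81. The profiles share the same 8 arrays, and a small distance says nothing of shared control.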

How the data were processed

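The 8 arrays each received a pool of RNA, 1 per zone at each of 2 ages. RNA was prepared with Qiagen RNeasy and labelled with the Nugen Ovation system and biotin, per the labels' protocols. The deposited values are linear intensity values, given for 31099 probe sets. MAS5, GCOS and RMA appear in the submitters' processing notes, and their roles are not given in the sources used here. Trimming a share of 0.02 of the probe sets at each end left a mean of 500.08 to 500.16 per array, while medians ran from 226.6 to 348.9. Precision is limited by the number of arrays.

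From these, 57 control probe sets were left out, an offset of 16 was added, and log2 values were quantile normalized and tested with limma 3.58.1 in R 4.3.3 (with a trend of variance on level, on 4 residual degrees of freedom between zones and 3 for age). The test was also run on simulated data with independent normal noise and no age effect, a simpler setting than that of these arrays. Gene names came from the platform annotation, updated through gene identifiers, with 20826 probe sets of 1 symbol. Each listed gene was represented by its brightest probe set. Every member was reported. Named were the largest zone difference of each member, listed genes past the threshold in a pair of zones, a selection of at most 4 others per list and comparison from the largest differences above the other-organ level, and the 3 nearest profiles with a mean above the median. The members and lists were chosen with earlier results of these data known.

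The same 2 ages stand in every zone. The 46-day minus 42-day difference correlated between zones with r from 0.022 to 0.081 across all probe sets. Over the brightest 0.2 of them r was 0.058 to 0.31, and there 4 of 6 pairs of zones were over 0.1. Since not every pair was over 0.1, age was not taken to pair the arrays, and the fit with age as a block is given as an alternative. Alternatives changed the scaling, offset, filter, variance trend, age term and arrays used.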

Additional observations from a re-analysis of the deposited data

How the results depend on the processing

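No member was called under another scaling, offset, filter or variance trend, with age as a replicate block, or with only the 4 arrays of the 2 zones compared. With each array left out in turn, calls ran from 0 to 1 for reserve minus proliferative, for reserve minus hypertrophic and for any zone difference, each time of Adamts1 without 1 hypertrophic array, and stayed at 0 in the other comparisons. For Adamts1 between reserve and proliferative arrays, the adjusted p with limma was 0.113 with age as a replicate block and 0.0765 with only the 4 arrays. Of 26 differences followed, 20 kept their sign in every alternative. For the age differences, leaving out an array took its whole zone out of the estimate. With an array left out, the age difference ran from -1.47 to 0.09 for Adamts1, -0.70 to 0.17 for Mmp14 (1378225_at), -0.11 to 0.67 for Mmp3, -0.75 to 0.27 for Timp3 (1372926_at) and -0.38 to 0.33 for Timp3 (1389836_a_at), and perichondral minus proliferative ran from -0.54 to 1.70 for Mmp2 (1370301_at). The age differences of the same 2 Timp3 probe sets also turned, to 0.21 as deposited and to -0.16 with median centring; the cause was not tested.

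Counts over all probe sets moved more. With age as a replicate block they were 3 for perichondral minus reserve, 13 for perichondral minus proliferative, 55 for perichondral minus hypertrophic, 60 for reserve minus proliferative, 38 for reserve minus hypertrophic, 11 for proliferative minus hypertrophic and 96 for any zone difference, against 0, 0, 9, 7, 7, 4 and 12 without it. The test of age called 0 probe sets (2616 at an unadjusted p below 0.05), 45 as deposited (2 higher and 43 lower at 46 days), 140 with median centring (3 higher and 137 lower) and 5 with an offset of 64. Without a variance trend no probe set was called. As deposited, the median age difference over all probe sets was 0.16, against 0.03 after quantile normalization, and that of reserve minus proliferative was -0.18, against -0.07. Leaving out 1 array moved the count between 0 and 167 for reserve minus hypertrophic, 0 and 45 for reserve minus proliferative, and 0 and 12 for proliferative minus hypertrophic, where median centring also gave 0.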
